A study of Mus musculus with 6 samples.

Results

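The 10 genes described here encode subunits of the WAVE regulatory complex (Wasf1, Wasf2, Wasf3, Nckap1, Abi1, Abi2 and Brk1), the GTPase that activates it (Rac1), a RAC effector kinase (Pak1) and the actin-severing protein cofilin (Cfl1). They were chosen by gene name from a count table with 55367 names, and all 10 had enough counts to be tested. RNA was measured by poly(A) RNA-seq in cortical cells of mice that were 1 day old (P1), after 2 days in culture, with 3 libraries from wild-type (WT) mice and 3 from Fmr1-KO mice. Both genotypes were C57BL/6J, and the labels name no treatment. Fmr1-KO mice make no FMRP, a regulator of neuronal mRNAs whose loss causes fragile X syndrome, and the labels do not give the allele. The study compared the genotypes to ask whether loss of FMRP lowers the targets of nonsense-mediated decay (NMD), which degrades particular mRNAs. Of the 10 genes, 1 (Wasf3) is in the list of NMD targets that the study drew up in a neuroblastoma line.

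Actin filaments that push the edge of a growing neurite forward are nucleated by the Arp2/3 complex, which has to be switched on by a nucleation-promoting factor such as a WAVE protein. WAVE proteins are held inactive in a complex with a CYFIP, a NCKAP1, an ABI and a BRK1 subunit, and GTP-bound RAC1 binds CYFIP and releases the WAVE protein. RAC1 also activates PAK kinases, which act through LIM kinases to phosphorylate and inhibit cofilin, the protein that severs and recycles older filaments. In neurons the pathway shapes growth cones, branches and dendritic spines, and CYFIP1 is also known as a partner of FMRP.

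Library totals ran from 30348556 to 35126207 counts, and the 10 genes had from 1902 counts (Wasf2) to 41938 counts (Cfl1) in a library. Fmr1 itself had levels, in CPM (counts scaled to library size by the TMM method), of 118.3, 112.2 and 109.6 in WT and of 54.2, 61.4 and 56.7 in Fmr1-KO, and its ranges did not overlap. The cells had been strained and depleted of ACSA2+ astrocytes and of myelin before plating. All 8 neuronal markers examined were present, with a summed level of 3270 to 3334 CPM in WT and 2538 to 2681 CPM in Fmr1-KO. The label "cortical neurons" does not cover all cells, since 8 astrocyte markers summed to 5090 to 5211 CPM in WT and 4488 to 4861 CPM in Fmr1-KO. Other markers that moved with genotype are given after the pathway genes. These are bulk samples, so fewer cells of a type and less RNA per cell cannot be told apart. The labels name no litter or culture for a library, and P values measure only the spread between these libraries.

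Of the 10 genes, 8 were lower in Fmr1-KO relative to WT, 0 were higher and 2 (Wasf2 and Brk1) did not pass an adjusted P of 0.05 (edgeR quasi-likelihood F-test, Benjamini-Hochberg over all 16976 tested genes). Among all tested genes, 42.6% passed, 21.9% as lower and 20.7% as higher. The 10 genes are abundant, and among the 4393 tested genes at least as abundant as Wasf2, the lowest of the 10, 32.1% passed as lower. The median log2 fold-change was -0.15 for the 10 genes and 0.01 for all tested genes. The count of 0 higher genes was the same at an unadjusted P under 0.05 and with DESeq2. In 9 of the 10 genes every Fmr1-KO library lay below every WT library. Across all tested genes the libraries of the genotypes did not overlap in 51.7%, and Fmr1-KO lay wholly below WT in 26.3%. The differences ranged from Wasf1, with an Fmr1-KO mean of 68.0% of WT, to Wasf2, with an Fmr1-KO mean of 105.1% of WT. Most were small, and requiring a fold change above 1.2 left Wasf1 and Pak1.

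**Figure D1:**
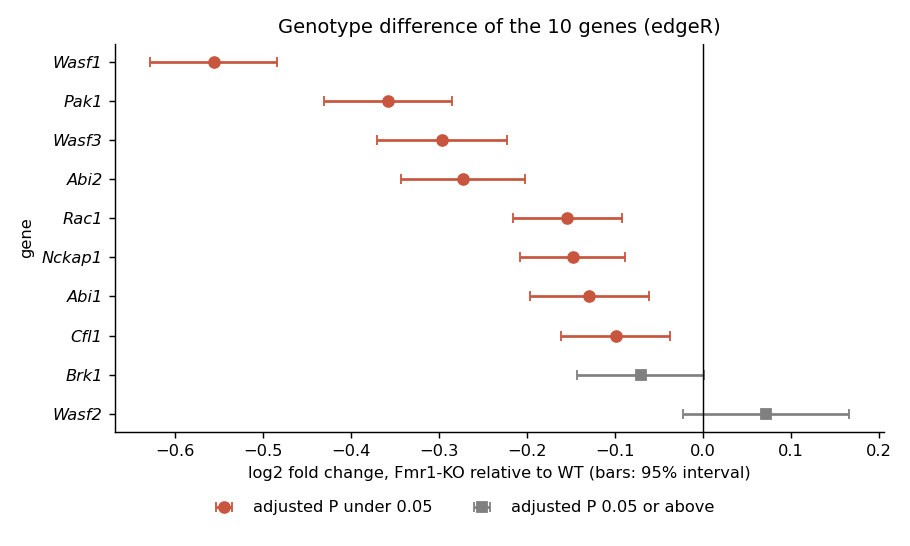
Log2 fold-change (horizontal axis, Fmr1-KO relative to WT) of each of the 10 genes (vertical axis), with bars for the 95% interval of the edgeR fit to 3 WT and 3 Fmr1-KO libraries. Wasf1 lies farthest from 0 at -0.56, 8 genes have intervals below 0, and the intervals of Brk1 and Wasf2 include 0.

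Rac1 encodes the small GTPase that links membrane receptors to the WAVE complex and to PAK kinases. It lies on the minus strand of chromosome 5, from 143503634 to 143528036 (GRCm38). Its level was 410.3, 412.3 and 408.2 CPM in the WT libraries and 379.1, 356.2 and 370.7 CPM in the Fmr1-KO libraries. All 3 Fmr1-KO libraries were below the WT range, and the WT libraries lay within a few CPM of each other. The log2 fold-change was -0.15 (SE 0.03; edgeR adjusted P 0.000233), a fall to 89.9% of the WT mean. Its exons share 2309 bases with Daglb on the opposite strand, and the reads had been counted by strand.

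Wasf1 encodes WAVE1, the WAVE protein best known from brain, where it acts in dendritic spines and in mitochondrial transport. The gene lies on the plus strand of chromosome 10, from 40883475 to 40938570 (GRCm38). The WT libraries were at 148.5, 142.4 and 145.2 CPM, and the Fmr1-KO libraries were at 102.0, 95.1 and 99.6 CPM. The gap between the genotypes was far wider than the spread within either. Wasf1 fell by 0.56 on the log2 scale (SE 0.03; edgeR adjusted P 4.12e-11), the largest change of the 10 genes, and 6.72% of all tested genes had a lower log2 fold-change.

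Wasf2 encodes WAVE2, the broadly expressed WAVE protein that builds lamellipodia. The gene lies on the plus strand of chromosome 4, from 133130505 to 133199756. Its level was 65.6, 57.5 and 64.0 CPM in WT and 66.3, 67.0 and 63.4 CPM in Fmr1-KO, so the ranges overlapped. The log2 fold-change was 0.07, with a 95% interval of -0.02 to 0.17 and an edgeR adjusted P of 0.219. That interval spans no change and does not reach the falls of the other WAVE genes.

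Wasf3 encodes WAVE3, which is also abundant in brain and promotes lamellipodia and cell movement. It is on the plus strand of chromosome 5, from 146384985 to 146473615. It was at 86.8, 84.2 and 84.7 CPM in WT and at 67.8, 70.8 and 69.6 CPM in Fmr1-KO. The highest Fmr1-KO library was well below the lowest WT library. The log2 fold-change was -0.30 (SE 0.04; edgeR adjusted P 6.43e-07), a mean of 81.4% of WT.

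The promoters of the 3 WAVE genes are shown because the genes encode alternative subunits of the complex and differed in their log2 fold-change. Each sequence is the 250 bases before the RefSeq start (GRCm38.p6, plus strand, 5′ to 3′), from chr10:40883284-40883533 for Wasf1, chr4:133130383-133130632 for Wasf2 and chr5:146384756-146385005 for Wasf3. Capitals mark matches, on either strand, to the GC box (GGGCGG) or the CCAAT box (CCAAT).
Wasf1: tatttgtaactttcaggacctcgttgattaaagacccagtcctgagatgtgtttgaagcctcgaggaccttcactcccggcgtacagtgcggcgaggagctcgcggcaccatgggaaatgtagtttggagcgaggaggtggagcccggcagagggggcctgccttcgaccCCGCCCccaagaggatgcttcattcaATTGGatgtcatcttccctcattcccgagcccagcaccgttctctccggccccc
Wasf2: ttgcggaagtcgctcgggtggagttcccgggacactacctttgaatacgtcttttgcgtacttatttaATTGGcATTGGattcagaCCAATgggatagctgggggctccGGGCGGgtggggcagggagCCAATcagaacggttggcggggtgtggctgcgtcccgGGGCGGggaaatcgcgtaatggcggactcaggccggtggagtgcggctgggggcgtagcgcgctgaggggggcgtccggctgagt
Wasf3: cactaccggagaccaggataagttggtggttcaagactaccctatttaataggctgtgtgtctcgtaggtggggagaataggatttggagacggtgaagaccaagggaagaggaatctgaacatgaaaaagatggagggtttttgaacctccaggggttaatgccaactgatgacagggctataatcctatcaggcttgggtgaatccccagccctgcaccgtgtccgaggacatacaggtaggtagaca

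The Wasf1 window held 1 GC box and 1 CCAAT box, the Wasf2 window held 2 GC boxes and 4 CCAAT boxes, and the Wasf3 window held neither. Of the 32851 RefSeq windows of this length, 32.7% held GGGCGG and 33.8% held CCAAT. The windows also differed in base composition, with a GC content of 58.4% for Wasf1, 63.2% for Wasf2 and 49.2% for Wasf3, against a median of 52.4% for all windows. CpG pairs numbered 15 in Wasf1, 23 in Wasf2 and 5 in Wasf3, and the median of all windows was 6. Windows for Abi1, Brk1, Pak1 and Cfl1 were searched as well. None of the 9 windows of these 7 genes held TATAAA, which 12.4% of all windows held, or a CArG box, the element read by the actin-responsive factor SRF, which 1.47% held. These matches describe letters in the windows and do not show that a factor binds.

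The ratio of WAVE paralogs does not depend on how the libraries are scaled, since both counts come from the same library. The log2 ratio of Wasf1 to Wasf2 counts was 1.18, 1.31 and 1.18 in WT and 0.62, 0.50 and 0.65 in Fmr1-KO, a difference of -0.63 (SE 0.06). The ratio of Wasf1 to Wasf3 differed by -0.26 (SE 0.05), and that of Wasf2 to Wasf3 by 0.37 (SE 0.06). In each of these pairs the genotypes did not overlap. An exact 2-sided permutation test gave P = 0.1 for each of the 10 paralog pairs compared, also after adjustment over the pairs, which is the smallest that 3 libraries against 3 allow.

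Per kb of exon, Wasf1 was the most abundant WAVE mRNA in every library, followed by Wasf3 and then Wasf2. Wasf1 was at 50.9 ± 1.08 CPM per kb in WT and 34.6 ± 1.23 CPM per kb in Fmr1-KO (SD, n = 3). Wasf3 was at 16.4 ± 0.268 and 13.4 ± 0.292 CPM per kb, and Wasf2 at 9.97 ± 0.682 and 10.5 ± 0.306 CPM per kb. The sum of the 3 genes was 77.3 ± 1.98 CPM per kb in WT and 58.5 ± 0.863 CPM per kb in Fmr1-KO. Wasf1 made up 65.9% ± 0.320 of that sum in WT and 59.2% ± 1.27 in Fmr1-KO. The share of Wasf2 was 12.9% ± 0.581 in WT and 17.9% ± 0.624 in Fmr1-KO, and the share of Wasf3 was 21.2% ± 0.262 and 22.9% ± 0.835.

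**Figure D2:**
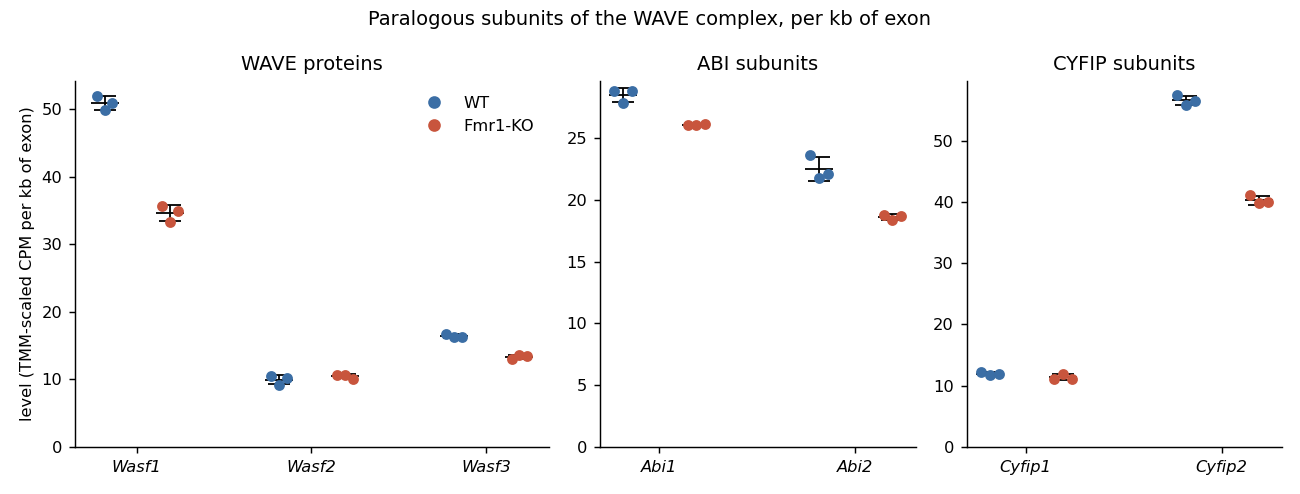
Level per kb of exon (vertical axes, TMM-scaled CPM per kb) of the paralogous WAVE, ABI and CYFIP subunits in 3 WT and 3 Fmr1-KO libraries, with points for libraries and bars for the mean ± SD. Wasf1 went from 50.9 in WT to 34.6 in Fmr1-KO while Wasf2 was at 9.97 and 10.5, and Cyfip2 went from 56.6 to 40.2 while Cyfip1 ranges overlapped.

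Nckap1 encodes NAP1, the large scaffold that pairs with CYFIP in the complex. It lies on the minus strand of chromosome 2, from 80500512 to 80581380. It was at 463.4, 457.4 and 451.3 CPM in WT and at 406.2, 422.8 and 409.1 CPM in Fmr1-KO. The genotypes did not overlap, and the mean in Fmr1-KO was 90.2% of WT. Its log2 fold-change was -0.15 (SE 0.03; edgeR adjusted P 0.000241). Nckap1l, the paralog used by blood cells, was far less abundant, and Nckap1 made up 95.1% ± 0.385 of the level per kb of this pair in WT and 96.1% ± 0.0202 in Fmr1-KO.

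Abi1 and Abi2 encode alternative ABI subunits, adaptors that join the WAVE protein to NAP1 and recruit ABL kinases. Abi1 lies on the minus strand of chromosome 2, from 22940073 to 23040241, and Abi2 on the plus strand of chromosome 1, from 60409619 to 60481158. Abi1 was at 116.4, 112.4 and 116.4 CPM in WT and at 105.1, 105.1 and 105.4 CPM in Fmr1-KO. The Fmr1-KO libraries of Abi1 were nearly identical in level and all below WT, with a log2 fold-change of -0.13 (SE 0.03; edgeR adjusted P 0.00273). Abi2 was at 201.7, 185.9 and 188.7 CPM in WT and at 160.2, 157.0 and 160.0 CPM in Fmr1-KO. The fall of Abi2 was larger, with a log2 fold-change of -0.27 (SE 0.03; edgeR adjusted P 1.11e-06).

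The log2 ratio of Abi1 to Abi2 counts was -0.74 ± 0.05 (SD, n = 3) in WT and -0.60 ± 0.02 (SD, n = 3) in Fmr1-KO, a difference of 0.14 (SE 0.03) with no overlap between genotypes. Per kb of exon, Abi1 made up 55.8% ± 0.817 of ABI mRNA in WT and 58.2% ± 0.271 in Fmr1-KO. The size of this lead depends on the length used, and with the longest transcript of each gene the WT shares were 50.3% for Abi1 and 49.5% for Abi2. Abi3, the third ABI gene, made up 0.290% in WT and 0.252% in Fmr1-KO.

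Brk1 encodes HSPC300, the smallest subunit of the complex. It lies on the plus strand of chromosome 6, from 113604772 to 113616951. It was at 123.5, 118.8 and 120.6 CPM in WT and at 116.2, 110.5 and 118.6 CPM in Fmr1-KO. All Fmr1-KO libraries were below WT, but the highest of them, at 118.65 CPM, was almost level with the lowest WT library, at 118.84 CPM. The log2 fold-change was -0.07, with a 95% interval of -0.14 to 0.0014 and an edgeR adjusted P of 0.108, so Brk1 did not pass the threshold.

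The remaining place in the complex is taken by CYFIP1 or CYFIP2, which carry the RAC1 binding sites. Cyfip2 fell from 401.9 ± 5.44 to 285.8 ± 5.05 CPM (SD, n = 3), a log2 fold-change of -0.49 (SE 0.03; edgeR adjusted P 1.59e-11). Cyfip1 was at 143.1 ± 3.62 CPM in WT and 135.8 ± 5.89 CPM in Fmr1-KO, its ranges overlapped, and its edgeR adjusted P was 0.0918, although it was called lower without Fmr1-KO replicate 2 (-0.11, edgeR adjusted P 0.0124). The log2 ratio of Cyfip1 to Cyfip2 differed by 0.42 (SE 0.05), and the genotypes did not overlap. Nckap1l fell from 28.5 ± 2.44 to 19.9 ± 0.526 CPM, with a log2 fold-change of -0.51 (SE 0.06; edgeR adjusted P 7.37e-07). Abi3 was at 0.615 ± 0.119 CPM in WT and 0.470 ± 0.0194 CPM in Fmr1-KO, with an edgeR adjusted P of 0.293. The summed levels per kb of each kind of subunit were not tested. They were 68.6 and 51.6 CPM per kb for CYFIP, 96.9 and 86.5 for NCKAP1, 51.2 and 44.8 for ABI, and 110.5 and 105.1 for Brk1, in WT and Fmr1-KO.

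Pak1 encodes the p21-activated kinase that is opened by RAC1 and CDC42. It lies on the plus strand of chromosome 7, from 97788541 to 97912381. Its level was 165.5, 157.4 and 168.7 CPM in WT and 127.7, 123.9 and 132.0 CPM in Fmr1-KO. The genotypes did not overlap, and the gap between them exceeded the range of either. The log2 fold-change was -0.36 (SE 0.03; edgeR adjusted P 3.6e-08), a mean of 78.0% of WT, and 11.9% of tested genes had a lower log2 fold-change.

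Pak2 and Pak3 encode the other kinases of the same group. Pak2 was at 179.6 ± 2.69 CPM in WT and 187.2 ± 4.40 CPM in Fmr1-KO and did not pass the threshold (log2 fold-change 0.06, edgeR adjusted P 0.127), but was called higher with library totals alone (0.09, edgeR adjusted P 0.0259). Pak3 had a log2 fold-change of -0.11 (SE 0.04; edgeR adjusted P 0.0256), although its libraries overlapped between genotypes. That call was lost with library totals alone and without Fmr1-KO replicate 1 or 3 or WT replicate 1 or 2, with edgeR adjusted P values of 0.0596 to 0.129. The log2 ratio of Pak1 to Pak2 counts differed by -0.42 (SE 0.06), and that of Pak1 to Pak3 by -0.25 (SE 0.08), with no overlap in either pair. Per kb of exon, Pak1 made up 51.6% ± 1.34 of the group in WT and 45.3% ± 1.42 in Fmr1-KO, while Pak2 made up 32.8% ± 0.568 and 38.5% ± 0.882.

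Cfl1 encodes cofilin-1, the non-muscle cofilin. It lies on the plus strand of chromosome 19, from 5490455 to 5495201. It was the most abundant of the 10 genes and more abundant than 99.8% of tested genes in CPM. Its level was 1207, 1192 and 1257 CPM in WT and 1145, 1102 and 1165 CPM in Fmr1-KO. All Fmr1-KO libraries were below WT, by a margin smaller than the spread within a genotype. The log2 fold-change was -0.10 (SE 0.03; edgeR adjusted P 0.0105), a mean of 93.3% of WT. This call did not hold with library totals alone (-0.07, edgeR adjusted P 0.0597) or without WT replicate 3 (-0.08, edgeR adjusted P 0.082). Of the 100-base windows of its transcript, 0.399% also occur in a transcript of another gene.

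Cfl2 (muscle cofilin) and Dstn (destrin, also called ADF) encode the other members of the cofilin family. Cfl2 was at 229.5 ± 7.47 CPM in WT and 236.1 ± 4.13 CPM in Fmr1-KO, with overlapping ranges and an edgeR adjusted P of 0.319. Dstn fell from 304.1 ± 8.8 to 276.7 ± 4.72 CPM, a log2 fold-change of -0.14 (SE 0.03; edgeR adjusted P 0.000999). The log2 ratio of Cfl1 to Cfl2 differed by -0.14 (SE 0.03), and that of Cfl1 to Dstn by 0.04 (SE 0.01). Cfl1 made up 65.1% ± 0.360 of the level per kb of the family in WT and 64.8% ± 0.270 in Fmr1-KO. The share of Cfl2 was 10.7% ± 0.281 and 11.7% ± 0.108, and that of Dstn was 24.2% ± 0.0993 and 23.5% ± 0.174, each without overlap between genotypes.

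**Figure D3:**
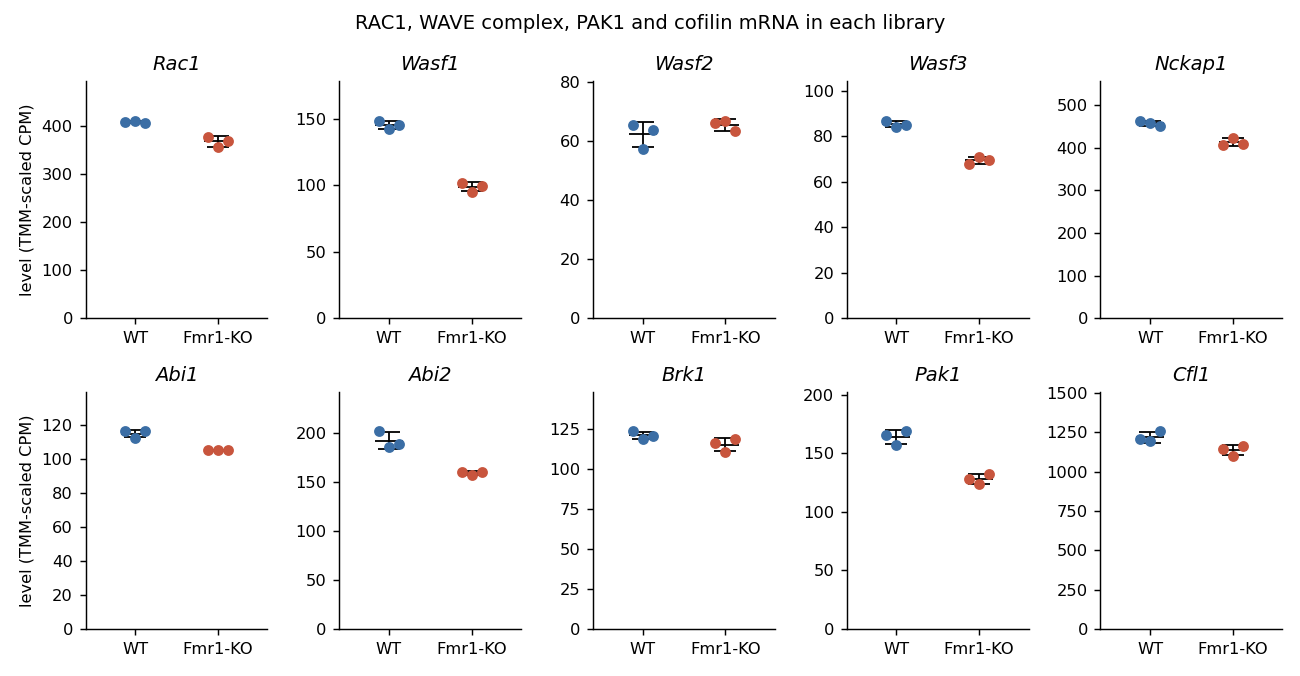
Level (vertical axes from 0, TMM-scaled CPM) of the 10 genes in each of 3 WT and 3 Fmr1-KO libraries, with bars for the mean ± SD. The genotypes overlap for Wasf2 alone, and the widest relative gap is that of Wasf1, from 145.4 in WT to 98.9 in Fmr1-KO.

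Among RAC GTPases the largest difference was in a paralog rather than in Rac1. Rac3, which is enriched in neurons, fell from 57.1 ± 2.84 to 32.1 ± 2.17 CPM (log2 fold-change -0.83, SE 0.05, edgeR adjusted P 3.27e-11). Rac2, the GTPase of blood cells, fell from 21.2 ± 2.20 to 14.8 ± 1.31 CPM (log2 fold-change -0.53, SE 0.08). The log2 ratio of Rac1 to Rac3 was 2.85 ± 0.07 (SD, n = 3) in WT and 3.52 ± 0.06 in Fmr1-KO, a difference of 0.68 (SE 0.06). Rac1 therefore made up more of the RAC level per kb in Fmr1-KO (73.5% ± 0.423) than in WT (64.2% ± 1.22), although its own level was lower.

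**Figure D4:**
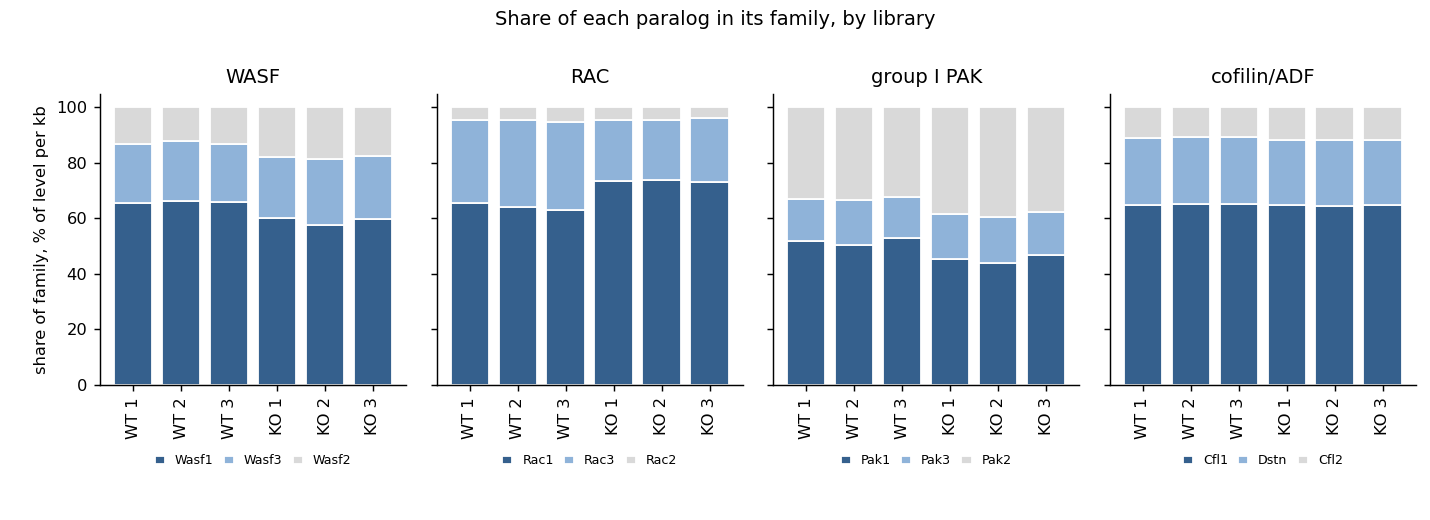
Share of each paralog in the summed level per kb of its family (vertical axes, percent, stacked to 100) in each of 3 WT and 3 Fmr1-KO (KO) libraries. The mean share of Wasf1 goes from 65.9% in WT to 59.2% in Fmr1-KO, that of Rac1 from 64.2% to 73.5% and that of Pak1 from 51.6% to 45.3%, while that of Cfl1 is 65.1% and 64.8%.

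Per kb of exon, the 10 genes themselves spanned a wide range of level. In WT the order was Cfl1 at 428.5 CPM per kb, Brk1 at 110.5, Nckap1 at 92.1, Rac1 at 91.3, Wasf1 at 50.9, Pak1 at 41.6, Abi1 at 28.5, Abi2 at 22.5, Wasf3 at 16.4 and Wasf2 at 9.97. Nckap1 and Rac1, neighbours in that order, had overlapping libraries in both genotypes. With these lengths, Wasf1 and Pak1 were apart in WT but overlapped in Fmr1-KO, where Wasf1 was at 33.3 to 35.7 and Pak1 at 31.4 to 33.5 CPM per kb. The union of exons is 2854 bases for Wasf1 and 3943 for Pak1, while their longest transcripts have 2719 and 3065 bases. No other neighbours in the order overlapped in either genotype with these lengths. The order depends on the length used and was not recomputed with the longest transcript, with which Abi1 and Abi2 had WT shares of 50.3% and 49.5%.

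The other genes of the pathway were read from the same edgeR fit, in 9 lists ordered by role with 91 genes in all. Of these, 39 (42.9%) were lower and 13 (14.3%) were higher, with a median log2 fold-change of -0.08, beside 21.9% and 20.7% of all tested genes. The split rests partly on the scaling, since with library totals alone 36 were lower and 21 were higher. Many of the 91 genes are also abundant. Among the 4393 tested genes at least as abundant as Wasf2, 32.1% passed as lower, but some of the 91 are less abundant than that.

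The Arp2/3 complex, the nucleator that WAVE proteins activate, had 9 of 10 subunits lower, 0 higher (also 0 at an unadjusted P under 0.05 and by DESeq2) and a median log2 fold-change of -0.22. Actr3b, a brain-enriched ARP3 paralog, fell from 44.2 ± 1.13 to 23.2 ± 0.532 CPM (log2 fold-change -0.93, edgeR adjusted P 1.78e-12), and Arpc1b had a log2 fold-change of -0.54. Arpc5l did not pass the threshold, at 68.6 CPM in WT and 65.3 CPM in Fmr1-KO. Of 8 other nucleation-promoting factors and their partners, 3 were lower and 0 were higher, with a median of -0.11. They were Wipf3 (log2 fold-change -0.70) and Wipf1 (-0.44), which bind and stabilize WASP proteins, and Jmy (-0.16). Wasl, the gene of N-WASP, had a log2 fold-change of 0.03 (edgeR adjusted P 0.587).

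Among 18 RAC exchange factors, which load RAC with GTP, 7 were lower and 5 were higher, with a median of -0.04. Dock3 (-0.50) and its partner Elmo1 (-0.39) fell most, while Arhgef6 (0.42), a PAK-binding factor, and Vav3 (0.21) rose most. The call of Vav3 was lost with DESeq2 and without Fmr1-KO replicate 2, where its log2 fold-change was 0.12, or WT replicate 2 or 3. Among 11 RAC GTPase-activating proteins, which switch RAC off, 5 were lower and 1 was higher, with a median of -0.11. Chn2 (-0.54) and Abr (-0.25) fell most, and the gene that rose was Racgap1 (0.49), whose product is needed for cytokinesis.

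Downstream of RAC, 3 of 5 other PAK kinases, Pak3 among them, were lower and 1 was higher, with a median of -0.11. Pak6 fell from 100.5 ± 5.88 to 57.8 ± 1.62 CPM (log2 fold-change -0.80, edgeR adjusted P 3.6e-12), and Pak5, listed under its older symbol Pak7, had a log2 fold-change of -0.26. Pak4 rose, with a log2 fold-change of 0.25. Of 15 other cofilin family genes and cofilin regulators, 7 were lower and 1 was higher, with a median of -0.06. Ssh3 (-0.35), of the slingshot phosphatases that activate cofilin, and Tesk1 (-0.22), a kinase that inhibits it, fell most. Cap2, which works with cofilin in filament turnover, rose (0.23).

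The cytoplasmic actin genes Actb and Actg1 and 4 genes of monomer-binding proteins gave 0 lower and 0 higher of 6 by edgeR at the adjusted threshold, 0 lower and 1 higher at an unadjusted P under 0.05, and 0 in either direction by DESeq2. Actb, the most abundant of them in CPM, was at 2251 ± 27.3 CPM in WT and 2173 ± 95.6 CPM in Fmr1-KO (log2 fold-change -0.05, edgeR adjusted P 0.2). Acta2, the smooth muscle actin gene that is listed here as a mural cell marker, rose from 176.1 ± 8.33 to 322.0 ± 6.52 CPM (log2 fold-change 0.87, edgeR adjusted P 3.51e-14). Rgs5, from the same marker list, fell from 22.1 ± 0.750 to 11.8 ± 0.506 CPM (log2 fold-change -0.91, edgeR adjusted P 2.27e-10). Of the 7 tested markers in that list, 4 were higher and 2 were lower. The median of the 6 actin and monomer-binding genes was -0.01, and with library totals alone it was 0.02. Formins and Ena/VASP proteins, which build unbranched filaments without the Arp2/3 complex, had 3 of 14 lower and 5 higher, with a median of 0.06. Diaph3 (0.54) and Fmn2 (0.24) rose most, and Fmnl1 (-0.36) and Fmnl2 (-0.22) fell most among those with a mean of at least 5 CPM.

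**Figure D5:**
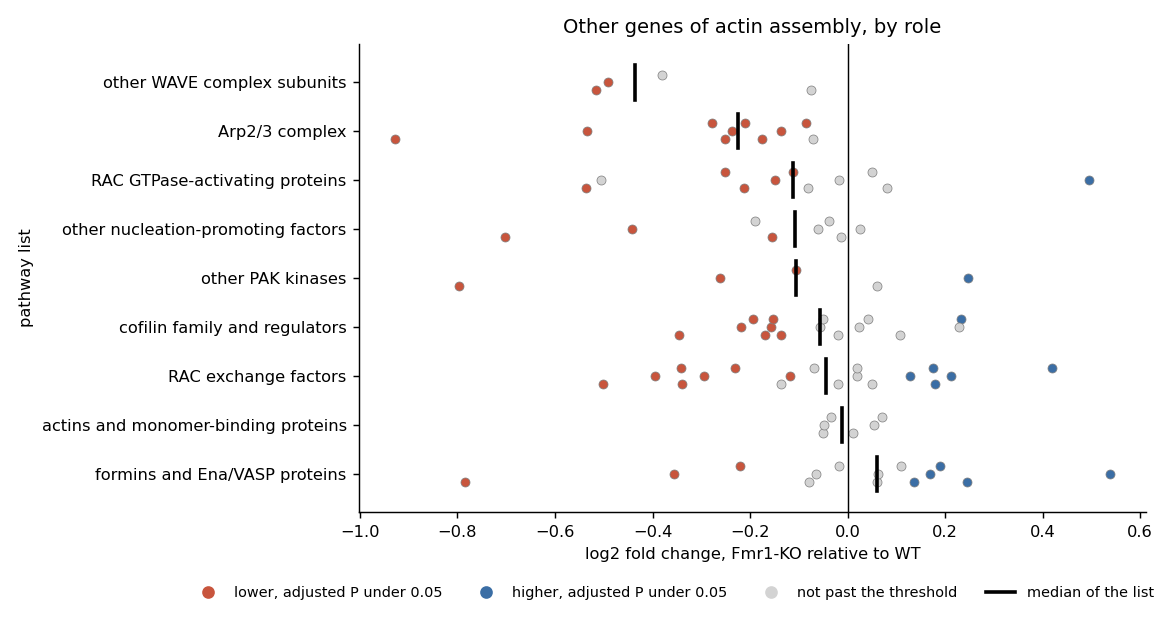
Log2 fold-change (horizontal axis, Fmr1-KO relative to WT) of the 91 other pathway genes, grouped in 9 lists by role (vertical axis), with 1 point per gene, colour for the edgeR call and a black bar for the median of the list. Arp2/3 complex subunits lie to the left, with 9 of 10 lower, the 6 actin and monomer-binding genes lie near 0, and formins and Ena/VASP proteins spread to both sides.

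Markers of cell types moved with genotype in the same libraries. All 8 neuronal markers were lower in Fmr1-KO, with a median log2 fold-change of -0.68 and values from -1.90 (Nefl) to -0.11 (Map2). The median is below the log2 fold-change of each of the 10 genes. Map2 and Tubb3 (-0.28) fell less than Wasf1, Wasf3 and Pak1, while the other neuronal markers fell more than each of the 10 genes. All 8 oligodendrocyte lineage markers were lower, with a median of -0.72, and their summed level was 1933 to 2101 CPM in WT and 1099 to 1185 CPM in Fmr1-KO. Of 8 markers of microglia and other blood-derived cells, 6 were lower, with sums of 174 to 192 and 106 to 116 CPM. All 8 markers of proliferating cells were higher, with a median of 0.69 and sums of 479 to 519 CPM in WT and 831 to 889 CPM in Fmr1-KO. Of 8 neural progenitor markers, 4 were higher and 0 were lower, with a median of 0.21 and sums of 2382 to 2396 and 2692 to 2762 CPM. Their values ran from -0.12 (Hes5, which did not pass the threshold) to 2.79 (Eomes). Eomes rose from 10.5 ± 2.25 to 72.8 ± 7.88 CPM (edgeR adjusted P 2.35e-15). Astrocyte markers were mixed, with 4 lower and 2 higher and a median of -0.05. Of 7 tested endothelial and mural markers, 2 were lower and 4 were higher. The endothelial markers Cldn5, which was too low to test, and Pecam1 were at or below 1.15 CPM in every library. Of the other endothelial markers, Kdr rose from 7.27 ± 0.784 to 17.1 ± 1.24 CPM (log2 fold-change 1.23, edgeR adjusted P 1.7e-10). Flt1, at 1.75 CPM in WT and 2.32 CPM in Fmr1-KO, was higher (0.41). Cdh5, at 2.54 CPM in WT and 1.61 CPM in Fmr1-KO, was lower (-0.66). The part of these shifts in the lower levels of Wasf1, Pak1 and the other genes was not tested.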

How the data were processed

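Genotypes and replicate numbers of the 6 poly(A) libraries, 3 WT and 3 Fmr1-KO, come from the sample titles. The values are raw, unnormalized counts as deposited by the authors, with a row for each gene name. Per their methods, reads were trimmed with FastP, mapped to GRCm38.p6 with STAR and assigned by featureCounts to exons on the reverse strand, with exons of a gene name added up. The submitters' processing notes name STAR 2.7.6a, Subread 2.0.1 and DESeq2 1.22.1. Isoforms and pre-mRNA are therefore not distinguished, and reads that fit several near-identical genes cannot be placed.

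The fit used edgeR 4.0.16 in R 4.3.3: filterByExpr (minimum count 10), TMM normalization, a genotype term alone in glmQLFit, 2-sided glmQLFTest, and Benjamini-Hochberg adjusted P values over 16976 genes. A gene was called lower or higher at an adjusted P under 0.05. SE is the size of the log2 fold-change divided by the square root of F, and intervals are 95%. CPM are TMM-scaled. Levels per kb use the union of annotated exons in GENCODE M21 (GRCm38), an earlier release than the authors'. Paralog ratios were compared with exact permutation tests (scipy 1.17.1). The code was tested on simulated data.

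The 10 genes, the pathway lists and the marker lists were chosen with earlier results of these data known, so no P was computed over a list. Named genes were the 10 genes, Fmr1, their paralogs, and in each pathway list the called genes with the largest rises and falls (at most 2 each way) with a mean of at least 5 CPM. Others were named where a group was described, after their values were seen: Jmy, Wasl, Arpc5l, Actb, Acta2, Rgs5, Nefl, Map2 and Tubb3. The same holds for the markers Kdr, Flt1, Cdh5, Hes5 and Eomes. A further pathway list is not reported here.

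Counts of calls over all genes, the 10 genes and the pathway lists were recomputed with a minimum fold change of 1.2 and, like the fold changes of the 10 genes and Fmr1, with DESeq2 1.42.0 (undefined adjusted P values kept undefined), with RLE or upper-quartile scaling or library totals alone, without the low-count filter or with a stricter one (means of at least 10 counts and 5 CPM), without the 20 most abundant genes, without each library in turn, and with a replicate block. Recomputing the calls of paralogs and most other named pathway genes in the same way was added after their values were seen. Paralog ratios were recomputed with 2 counts added and without each library, and shares on the longest transcript; marker lists were not recomputed. Promoter windows are RefSeq's. Libraries of a genotype varied beyond counting error (chi-square per degree of freedom 2.93 in WT and 3.18 in Fmr1-KO), and the biological coefficient of variation was 3.22%. The labels give no batch to compare within.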

Additional observations from a re-analysis of the deposited data

How the results depend on the processing

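No log2 fold-change of the 10 genes changed sign in 140 alternative values, and 138 of these kept their side of the threshold. The other 2 were those of Cfl1, given with its result. Among 33 named genes outside the 10, calls changed in these settings, chosen after seeing the data, for Cyfip1, Vav3, Pak2 and Pak3, as given with their results. All 70 alternative values of the paralog ratios kept their direction. Of 38 mean family shares, 33 moved by more than the spread between replicates with the length of the longest transcript.

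With a minimum fold change of 1.2 tested, the counts of called genes fell, as the stricter hypothesis requires: 1340 lower and 883 higher of all genes, 2 lower of the 10 genes, and 12 lower and 3 higher of the pathway genes. In that setting 2 Arp2/3 subunits were lower. RAC exchange factors had 3 lower and 1 higher, and RAC GTPase-activating proteins 1 lower. PAK kinases had 1 lower and 0 higher, cofilin regulators 0 lower and 0 higher, and formins and Ena/VASP proteins 1 lower and 1 higher. With library totals alone 21 pathway genes were higher, of which 3 were RAC GTPase-activating proteins, 2 PAK kinases, 2 cofilin regulators and 2 actins or monomer-binding proteins. The higher cofilin regulators numbered 2 with no low-count filter and with upper-quartile normalization, and from 1 to 2 when a library was left out. The higher actins and monomer-binding genes numbered 1 with no low-count filter, with the stricter filter and with upper-quartile normalization, and from 0 to 2 (without Fmr1-KO replicate 2) when a library was left out. Apart from the fold-change setting, the cause was not tested.

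The deviations of same-numbered WT and Fmr1-KO libraries from their genotype means had correlations of -0.05, 0.05 and 0.0007. No shift shared by same-numbered libraries was seen over all tested genes, which cannot show whether they were prepared together. With a replicate block, 8 of the 10 genes were lower, 3694 genes were lower and 3488 higher in all, and 1 actin or monomer-binding gene was higher. With 3 libraries per genotype, permutation tests could not pass the threshold. For genes at the depth of the 10, the SE of a log2 fold-change was 0.03 to 0.05.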
